A study of Mus musculus with 6 samples.

Results

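The genes described here are the 7 that encode subunits of the NMDA receptor, *Grin1*, *Grin2a*, *Grin2b*, *Grin2c*, *Grin2d*, *Grin3a* and *Grin3b*, in RNA-seq of mouse prefrontal cortex. They were taken by symbol from 56923 genes, and all 7 were found. The family was chosen by results of these data already at hand, in which *Grin2c* was higher in every KO library, so the KO and WT values of the 7 genes are given as a description, with no test.

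Polyadenylated RNA was sequenced from 3 samples of constitutive *Pla2g4e* knockout mice (KO) and 3 of wild-type mice (WT). The product of *Pla2g4e* is a cytosolic phospholipase A2 that acts as an N-acyltransferase on phosphatidylethanolamine when calcium is present. Per the methods of the study, the knockout carries the *Pla2g4e* tm2a allele on C57BL/6N-*A* tm1Brd, a LacZ gene trap predicted to stop the transcript by splicing and present in all cells of the body, and mice of both sexes were used. The labels give no age, sex, litter or treatment, and they do not say that each library came from a separate animal, so the p-values below measure only the spread between these samples.

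NMDA receptors are glutamate-gated cation channels that open when glutamate and glycine or D-serine are bound and depolarization has removed magnesium from the pore. Each channel joins GluN1, the obligatory glycine-binding subunit encoded by *Grin1*, with GluN2 subunits, which bind glutamate and set the kinetics, magnesium block and signalling partners of the channel, or with GluN3 subunits, which bind glycine. In the adult forebrain GluN2A and GluN2B predominate in principal neurons, whereas GluN2C is best known from cerebellar granule cells and is also made in some forebrain astrocytes and interneurons, and GluN2D from interneurons.

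The 7 coding sequences, taken as the longest complete coding sequence of each gene in GENCODE M21 (GRCm38), were aligned to show how alike the members are. Over the whole aligned coding sequences *Grin2a* and *Grin2b* were the most alike pair (62.3% of aligned bases identical), followed by *Grin2c* and *Grin2d* (61.9%) and by *Grin3a* and *Grin3b* (56.7%), and *Grin1* and *Grin3b* were the least alike (40.6%). The longest run of identical bases between the annotated transcripts of any 2 of the genes was 34 bases, between *Grin2b* and *Grin2c*, followed by 32 between *Grin2c* and *Grin2d*.

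In the annotation of the files (GENCODE M31, GRCm39) the genes lie on 7 chromosomes. *Grin1* (ENSMUSG00000026959.14) spans chr2:25181193-25209199 with 9700 exonic bases, *Grin2a* (ENSMUSG00000059003.13) spans chr16:9385762-9813424 with 17933, and *Grin2b* (ENSMUSG00000030209.15) spans chr6:135690231-136150509 with 24842. *Grin2c* (ENSMUSG00000020734.14) spans chr11:115139995-115158069 with 5037 exonic bases, and *Grin2d* (ENSMUSG00000002771.13) spans chr7:45481307-45527802 with 6658. *Grin3a* (ENSMUSG00000039579.16) spans chr4:49661611-49845744 with 12275 exonic bases, and *Grin3b* (ENSMUSG00000035745.10) spans chr10:79806549-79813024 with 3296. All but *Grin3b* are on the minus strand. No exon of the 7 overlaps an exon of another gene on the same strand. On the opposite strand, exons of *Grin1os* cover 13.5% of those of *Grin1*, exons of *Gm45441* cover 9.66% of those of *Grin2d*, and exons of *Tmem259* cover 32.1% of those of *Grin3b*. Counting used the strand of the fragments.

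Library totals ranged from 11792463 to 14594230 fragments. The targeted gene *Pla2g4e* had 5.95, 8.12 and 7.97 CPM across KO replicates, against 7.84, 11.30 and 13.19 CPM across WT. Transcript was therefore counted in every KO library, and the value of the library labelled WT replicate 1 was inside the KO range. KO replicate 1 stood apart in 8 olfactory bulb markers, whose summed level was 289 CPM there and 18.7 to 80.1 CPM in the other libraries. *Xist* was high in KO replicate 1 and in the library labelled WT replicate 1 and near 0 in the others. Of 19084 genes tested with limma-voom, 0 (0.0%) passed an adjusted p-value of 0.05. At that threshold 1 gene passed with DESeq2, 24 with an *Xist* covariate and 3 among the libraries with low *Xist*. In the main limma-voom fit 1492 genes (7.82%) had an unadjusted p-value under 0.05. Leaving out WT replicate 3 gave 2239 such genes, leaving out KO replicate 1 gave 830, and leaving out WT replicate 2 gave 782.

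Levels between genes are compared as FPKM, fragments per kilobase of exon and per 1000000 fragments, because the exon lengths differ several-fold. *Grin1*, the obligatory subunit, had the highest level, at 61.0, 58.8 and 64.3 FPKM in KO replicates 1 to 3 and at 58.2, 66.4 and 59.5 FPKM in the libraries labelled WT replicates 1 to 3. Its mean was 61.4 ± 3.30 FPKM (SD, n = 6). *Grin2b* followed at 27.4 ± 1.01 FPKM. The mean of *Grin2a* was 12.2 ± 0.61 FPKM and that of *Grin2c* was 12.02 ± 2.02 FPKM. *Grin3a* was at 4.04 ± 0.52 FPKM and *Grin2d* at 3.47 ± 0.43 FPKM. *Grin3b*, which encodes the second glycine-binding GluN3 subunit, had 0 to 3 fragments in any library, where 3 fragments correspond to 0.0615 to 0.0762 FPKM. In each library it was therefore at or under the level that a count of 0 allows, a limit that covers counting error alone.

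**Figure D1:**
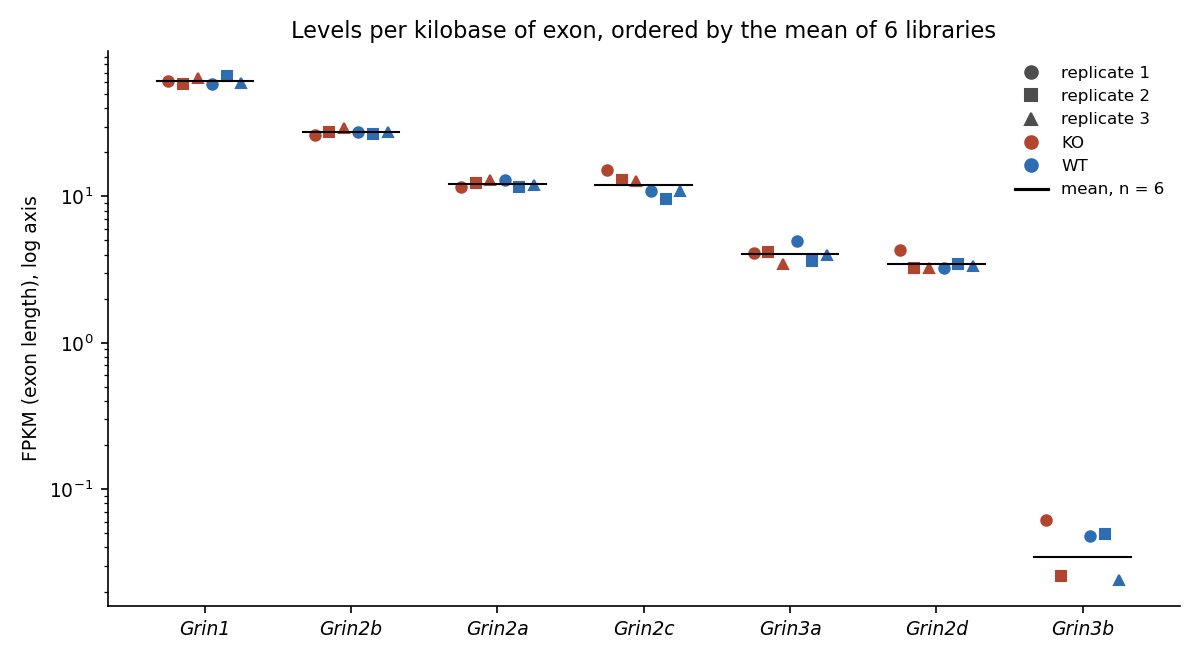
FPKM (per kilobase of exon, log axis) of the 7 genes in the 6 libraries, ordered by mean, with KO in red, WT in blue, a marker shape for each replicate number and a line at the mean of 6 libraries. *Grin3b* in KO replicate 3 had no fragment and is not drawn. The points of *Grin2a* and *Grin2c* overlap, as do those of *Grin3a* and *Grin2d*, and the other neighbours lie apart.

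Neighbours in this order were compared within each library by an exact sign-flip permutation test (two-sided, 6 pairs, Benjamini-Hochberg adjustment). With 6 libraries this test allows no p-value below 0.03125. The order came from the means of these same 6 libraries. The p-values therefore describe how steady each step was between libraries, and do not test an order named beforehand. *Grin1* was 2.24-fold above *Grin2b* (log2 ratio 1.16 ± 0.09, SD, higher in 6 of 6 libraries, exact p = 0.03125, adjusted p = 0.0469). *Grin2b* was 2.25-fold above *Grin2a*, with a log2 ratio of 1.17 ± 0.04 and the same p-values. *Grin2a* and *Grin2c* did not differ beyond their spread (log2 ratio 0.04 ± 0.25, higher in 4 of 6 libraries, exact p = 0.75). This mean joins libraries that differ in direction. The ratio of *Grin2c* to *Grin2a* was 0.849, 0.822 and 0.914 in WT, against 1.310, 1.056 and 0.973 in KO. *Grin2c* was thus above *Grin2a* in KO replicates 1 and 2 and below it in KO replicate 3 and in each WT library. The *Grin2c* difference between the groups chose the family. *Grin2c* was 2.96-fold above *Grin3a* (log2 ratio 1.56 ± 0.29, 6 of 6 libraries, exact p = 0.03125, adjusted p = 0.0469). *Grin3a* and *Grin2d* did not differ beyond their spread (log2 ratio 0.22 ± 0.24, 5 of 6 libraries, exact p = 0.09375, adjusted p = 0.1125). *Grin2d* was above *Grin3b* in 6 of 6 libraries (exact p = 0.03125, adjusted p = 0.0469), with 1800 fragments against 9 over all libraries and a ratio per kilobase of 99.0 (exact 95% interval 52.0 to 217, for counting error alone and not for the spread between libraries).

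The order depended on the length used. The exon length in the files joins all exons of all transcripts, and the transcripts in use in this tissue were not measured. With the length of the longest protein-coding transcript, an alternative added after the data were seen, *Grin1* was 4.92-fold above *Grin2b*, and *Grin3a* was above *Grin2d* in 6 of 6 libraries (log2 ratio 0.63, exact p = 0.03125, adjusted p = 0.0375). In fragments not divided by length, *Grin2b* (677 to 685 CPM as group means) stood above *Grin1* (595 CPM in both groups), with a log2 ratio of *Grin1* to *Grin2b* of -0.20. On that scale *Grin2a* stood 3.65-fold above *Grin2c* in 6 of 6 libraries (exact p = 0.03125, adjusted p = 0.0375). *Grin2c* was 1.86-fold above *Grin3a* with the longest coding transcript. In CPM it was 1.21-fold above *Grin3a*, in 5 of 6 libraries, and missed the threshold (exact p = 0.09375, adjusted p = 0.09375).

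Summed over the family, the 7 genes reached 123, 119 and 126 FPKM in KO, against 118, 121 and 117 FPKM in WT, and the groups overlapped. Against the related ionotropic glutamate receptor families, this sum lay below that of the 4 AMPA receptor genes, which carry most fast excitatory transmission, and above that of the 5 kainate receptor genes. The family sums were 121 ± 3.32 FPKM for NMDA, 188 ± 7.49 FPKM for AMPA and 82.1 ± 2.58 FPKM for kainate (SD, n = 6). The log2 ratio was -0.64 ± 0.06 to AMPA (lower in 6 of 6 libraries) and 0.55 ± 0.06 to kainate (higher in 6 of 6 libraries), with an exact p of 0.03125 and an adjusted p of 0.03125 in both sign-flip permutation tests. The directions were the same but the sizes differed with the length, at -0.34 and 0.96 with the longest coding transcript and at -0.17 and 1.56 in CPM.

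*Grin1* made up 49.5% to 54.8% of the summed FPKM of the family in the 6 libraries. *Grin2b* made up 21.4% to 23.6%, *Grin2a* 9.48% to 10.9%, *Grin2c* 7.87% to 12.4%, *Grin3a* 2.76% to 4.19% and *Grin2d* 2.56% to 3.53%. *Grin3b* took at most 0.050%. These shares depended on the length. In CPM the mean share of *Grin2b* was 41.8%, above that of *Grin1* at 36.55%, and that of *Grin2c* was 3.72%. With the longest coding transcript the mean shares were 13.8% for *Grin2b*, 67.6% for *Grin1* and 6.01% for *Grin2c*. The ratio of *Grin1* to the 4 *Grin2* genes together was 1.06, 1.05 and 1.11 in KO, against 1.07, 1.30 and 1.11 in WT. It depended on the length, with a mean over the 6 libraries of 1.12 in FPKM, 2.33 with the longest coding transcript and 0.606 in CPM. The ratio of *Grin2b* to *Grin2a*, often used as a measure of receptor maturity because GluN2A rises after birth, was 2.26, 2.24 and 2.24 in KO, against 2.14, 2.29 and 2.33 in WT. The KO values of this ratio lay inside the WT range.

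Among the 4 *Grin2* genes, *Grin2c* took 26.5%, 23.2% and 21.8% of the summed FPKM in KO replicates 1 to 3 and 20.0%, 18.6% and 20.2% in WT. The KO and WT values of this share did not overlap, but the share carries the *Grin2c* difference that chose the family, so this is no separate result. The share of *Grin2b* was 45.7%, 49.1% and 50.2% in KO, against 50.5%, 51.9% and 51.5% in WT, and these did not overlap either, with KO below WT. The *Grin2b* level itself overlapped between the groups, and its share is set in part by *Grin2c* in the same sum. In CPM the shares of *Grin2b* overlapped, at 67.5%, 69.0% and 69.4% in KO, against 69.0%, 70.3% and 70.4% in WT. The share of *Grin2a* was 20.2% to 22.4% in KO and 22.1% to 23.6% in WT, and that of *Grin2d* was 5.56% to 7.55% in KO and 5.94% to 6.80% in WT. In fragments, *Grin2c* was a minor gene of the group, at 6.12% to 7.94% in KO and 5.12% to 5.59% in WT.

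**Figure D2:**
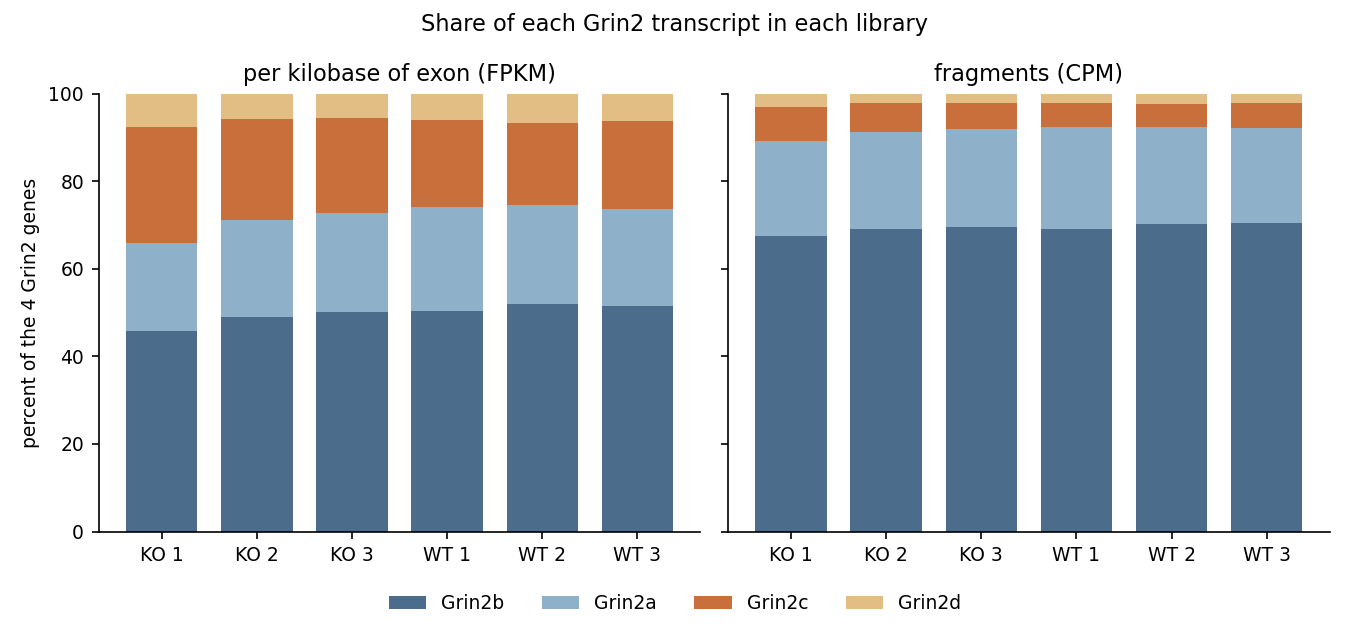
Stacked percent of each *Grin2* gene in the sum of the 4 *Grin2* genes, for each library, in FPKM (left) and in CPM (right). *Grin2c* takes 21.8% to 26.5% in KO and 18.6% to 20.2% in WT of the FPKM sum, and under 8% of the CPM sum. The *Grin2c* difference between the groups chose the family.

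KO and WT are compared gene by gene in CPM, fragments per 1000000 after TMM scaling, with the log2 fold change (KO against WT) and standard error (SE) of the limma-voom fit across all genes. *Grin2c* was at 76.72, 65.16 and 63.81 CPM in KO replicates 1 to 3, from 1135, 778 and 817 fragments. It was at 54.95, 48.05 and 54.63 CPM in the libraries labelled WT replicates 1 to 3, from 701, 587 and 696 fragments. Each KO library was above each WT library, and the lowest KO library exceeded the highest WT library by 8.86 CPM. The means were 68.6 ± 7.09 CPM in KO, against 52.5 ± 3.90 CPM in WT (SD, n = 3), and the log2 fold change was 0.38 (SE 0.09), or 30.5% higher in KO. This contrast chose the family. Of all genes tested, 6.72% had every KO library above every WT library and 6.29% had every KO library below, and 17.2% had a log2 fold change at least as far from 0 as that of *Grin2c*.

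The highest *Grin2c* value was that of KO replicate 1. Without that library the log2 fold change was 0.30, and across 16 alternatives it lay between 0.30 and 0.43, a direction that the choice of the gene fixes. Between the libraries with high *Xist*, 1 of each group, it was 0.48, and among the other libraries, 2 of each group, it was 0.33. Directions here follow the labels, with the limit given above for the library labelled WT replicate 1, and without that library the log2 fold change was 0.42.

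**Figure D3:**
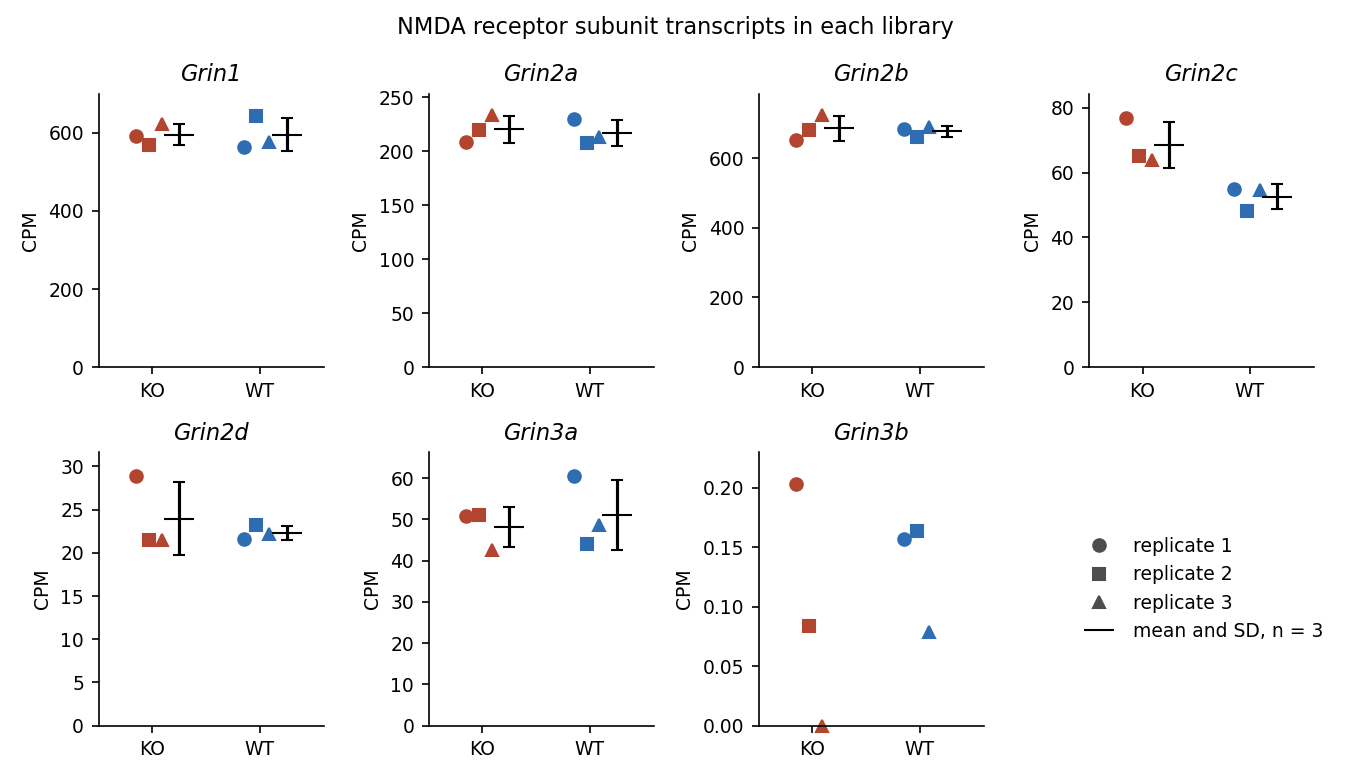
CPM of each of the 7 genes in the 3 KO (red) and 3 WT (blue) libraries, with a marker shape for each replicate number and, except for *Grin3b*, the mean and SD beside them; each vertical axis starts at 0. For *Grin2c* the KO libraries, at 63.81 to 76.72 CPM, lie above the WT libraries, at 48.05 to 54.95 CPM, and for the other genes the ranges overlap.

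For the other genes of the family the groups overlapped. *Grin1* was at 591.89, 570.28 and 623.94 CPM in KO, against 564.69, 644.42 and 577.36 CPM in WT, and its log2 fold change was 0.00 (SE 0.07). *Grin2a*, whose product joins synaptic receptors as the cortex matures, was at 208.45, 219.69 and 233.44 CPM in KO, against 230.30, 208.15 and 212.86 CPM in WT. *Grin2b*, whose product predominates early and binds CaMKII, was at 652.05, 680.58 and 723.67 CPM in KO, against 682.98, 659.73 and 688.19 CPM in WT. The log2 fold changes of *Grin2a* and *Grin2b* were both 0.02, with an SE of 0.07 and 0.06. The pair had its highest values in KO replicate 3.

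*Grin2d* was at 28.86, 21.52 and 21.48 CPM in KO, against 21.56, 23.16 and 22.21 CPM in WT. Its one high library was KO replicate 1, and the other 5 lay between 21.48 and 23.16 CPM. Its log2 fold change was 0.10 (SE 0.12) over all libraries and -0.05 without KO replicate 1. *Grin3a*, whose product lowers the calcium permeability and magnesium block of the receptors it joins, was at 50.76, 51.01 and 42.64 CPM in KO, against 60.51, 44.12 and 48.74 CPM in WT, with a log2 fold change of -0.08 (SE 0.11). Its highest value was in the library labelled WT replicate 1, without which the log2 fold change was 0.05. *Grin3b* had 3, 1 and 0 fragments across the KO libraries, against 2, 2 and 1 across WT, fewer than the 6 in at least 1 library needed for the fit, and it was not compared.

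Of the 7 genes 6 were thus fitted, with 5 log2 fold changes above 0 and 1 below. Their median was 0.02, and that of all genes tested was 0.01. The groups were separate for 1 of the 6, *Grin2c*, whose difference chose the family. Of all genes tested, 6.72% had every KO library above every WT library and 6.29% had every KO library below. The direction of *Grin1*, *Grin2a*, *Grin2b*, *Grin2d* and *Grin3a* was not the same under all alternatives. In the spread over all 6 libraries *Grin2b* varied least, with a coefficient of variation (CV) of 3.69%, then *Grin2a* with 5.02% and *Grin1* with 5.38%. *Grin2d* (12.5%) and *Grin3a* (12.8%) varied more. The CV of *Grin2c* over all libraries, 16.8%, holds the difference between the groups that chose the family. Counting error alone, in the library with the fewest fragments of the gene, gave a CV of 1.11% for *Grin2b*, 6.24% for *Grin2d* and 4.13% for *Grin2c*. The CV of *Grin2d* came from KO replicate 1, since the other 5 libraries lay close together.

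Other cell types and neighbouring regions can change the level of a gene in bulk tissue, where fewer cells of a type and less RNA per cell cannot be told apart. The sums of 8 general neuron markers were just separate, at 7055 to 7513 CPM in KO, against 7545 to 8493 CPM in WT. Taken singly, 0 of the 8 markers had separate groups, and 1 of the 8 had a log2 fold change above 0 (median -0.15). Markers of cortical excitatory neurons were present in every library, at a summed 1691 to 2128 CPM in KO, against 2035 to 2335 CPM in WT for 9 genes, and 0 of the 9 had a log2 fold change above 0. Of 12 astrocyte markers 12 had log2 fold changes above 0, with a median of 0.07, and their summed levels overlapped, at 5114 to 5706 CPM in KO, against 4808 to 5624 CPM in WT. Of 10 oligodendrocyte markers 10 were above 0 (median 0.19), with sums of 2339 to 2713 CPM in KO, against 1808 to 2999 CPM in WT, and of 9 striatal neuron markers 9 were above 0 (median 0.28), with sums of 341 to 448 CPM in KO, against 255 to 426 CPM in WT. Of 9 interneuron markers 3 had log2 fold changes above 0, with sums of 841 to 1214 CPM in KO, against 831 to 1068 CPM in WT. Every KO library was below every WT library for 3 of them, *Sst* (log2 fold change -0.50, SE 0.09), *Lhx6* (-0.33, SE 0.11) and *Pvalb* (-0.23, SE 0.10), where 6.29% of all genes tested had that pattern. The 3 above 0 were *Gad1* (0.33, SE 0.22), *Gad2* (0.10, SE 0.14) and *Slc32a1* (0.05, SE 0.13), with overlap. Of 8 olfactory bulb markers 8 had log2 fold changes above 0, with sums of 50.4 to 289 CPM in KO, against 18.7 to 79.6 CPM in WT, and *Eomes*, a defining gene of mitral cells, was at 0 in 1 library. The sums of the oligodendrocyte precursor, microglia, endothelial and choroid plexus markers overlapped between the groups.

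Cerebellar granule cells are the best-known source of *Grin2c*. *Gabra6*, which defines them, had no fragment in 4 of the 6 libraries and at most 0.168 CPM in the others. The 7 markers on that list summed to 55.4 to 83.4 CPM in KO, against 42.1 to 54.9 CPM in WT. These sums lay higher in KO, as *Grin2c* did, but were only just separate, at 55.4 CPM in the lowest KO and 54.9 CPM in the highest WT library. Of 6 markers that could be fitted 3 had log2 fold changes above 0. *Cbln1*, the one marker of the list with every KO library above every WT library, was at 9.53, 4.61 and 5.70 CPM in KO, against 4.546, 3.929 and 4.003 CPM in WT, with a log2 fold change of 0.63 (SE 0.26). Of all genes tested, 6.72% had that pattern. The largest part of the summed CPM in every library was that of *Zic1*, at 49.3, 25.1 and 25.1 CPM in KO, against 25.9, 15.6 and 19.7 CPM in WT, with overlap. KO replicate 1 was highest in *Grin2c*, *Grin2d*, *Zic1* and the olfactory bulb sum and lowest in the sum of excitatory neuron markers. The part of these markers in the *Grin2c* and *Grin2d* values was not tested beyond the log2 fold changes without KO replicate 1 given above.

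**Figure D4:**
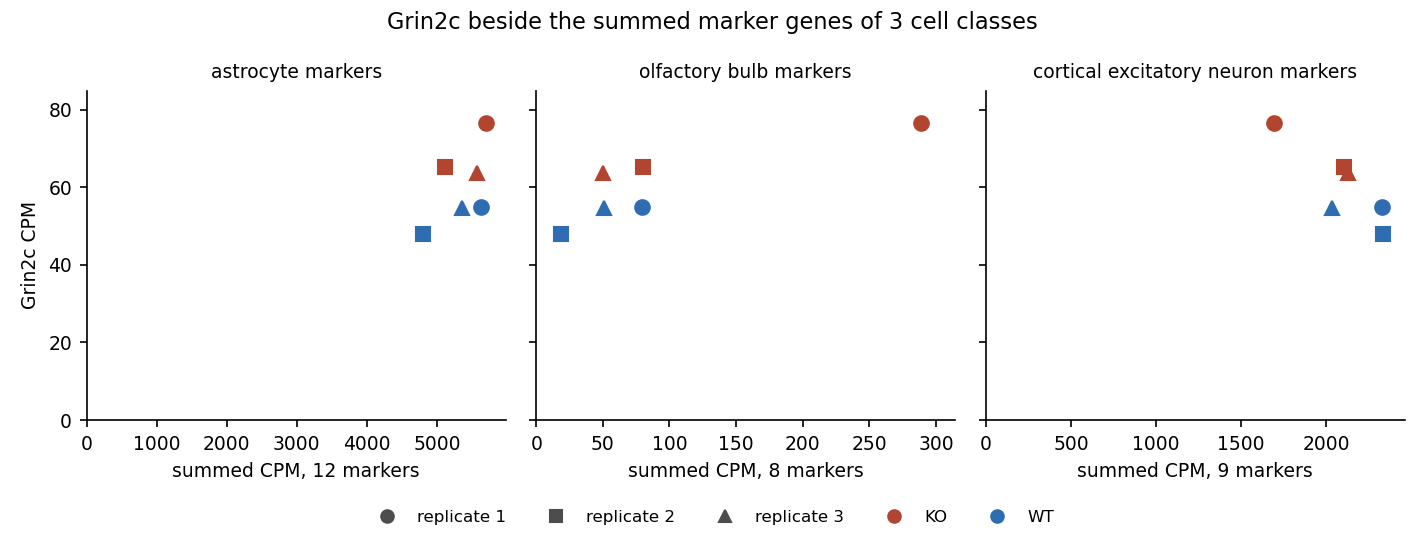
*Grin2c* CPM against the summed CPM of 12 astrocyte, 8 olfactory bulb and 9 cortical excitatory neuron markers, 1 point for each library, with all axes starting at 0. KO replicate 1 (red circle) lies apart at 289 CPM of olfactory bulb markers and is lowest in excitatory neuron markers, at 1691 CPM.

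Among the members, log2 CPM of *Grin2a* and *Grin2b* went together over the 6 libraries (Pearson r = 0.82), and *Grin1* and *Grin3a* went in opposite ways (r = -0.84). *Grin2c* had its highest coefficient with *Grin2d* (r = 0.56), with KO replicate 1 highest in both. These coefficients describe 6 libraries that share scaling and group. Of 15248 genes with a mean of at least 1 CPM, those most like *Grin2c* were the pseudogene *Pisd-ps2* (r = 0.993), ENSMUSG00000120621.1 (r = 0.993), which matched no symbol, and *Mir124-2hg*, a host transcript of the neuronal microRNA miR-124 (r = 0.992). *Mir124-2hg* was at 75.5, 68.0 and 67.4 CPM in KO, against 58.9, 54.9 and 61.3 CPM in WT, a pattern that its choice by likeness to *Grin2c* fixes. The genes most like *Grin1* were *Gm26843*, *Gm37811* and *Evpl* (r = 0.987 to 0.992), those most like *Grin2a* were *Rhpn1*, *Asphd1* and *Zbtb40* (r = 0.981 to 0.985), and those most like *Grin2b* were *Tor1aip2*, *Gm14636* and *Myd88* (r = 0.966 to 0.987). For *Grin2d* they were *Neb*, *Col23a1* and *Parvb* (r = 0.984 to 0.988), with KO replicate 1 the highest library in each, and for *Grin3a* they were *Ifngr1*, *Morn2* and *Nell1* (r = 0.990 to 0.992), with the library labelled WT replicate 1 the highest in each.

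The partners of the receptor were read from 4 lists with 77 genes, of which 75 were tested. Of these 0 passed the adjusted threshold in limma-voom and 10 had an unadjusted p-value under 0.05, 4 higher and 6 lower in KO, a share to be read against the 7.82% of all genes. The log2 fold changes were above 0 for 27 and below 0 for 48, with a median of -0.05. The edgeR quasi-likelihood test and DESeq2 likewise passed 0 of them at the adjusted threshold. The count of 10 rested on single libraries, since it became 18 when WT replicate 3 was left out, 5 for the library labelled WT replicate 1, 2 for KO replicate 1 and 1 for WT replicate 2. Over all genes the count of 1492 became 2239, 1019, 830 and 782 with the same libraries left out.

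Postsynaptic scaffolds anchor the receptor in the postsynaptic density. Of 21 such genes 7 had log2 fold changes above 0 and 14 below (median -0.02). An unadjusted limma-voom p-value under 0.05 was found for 2 of the 21, and for 7.82% of all genes tested. *Homer2*, which links metabotropic receptors to Shank proteins, was at 120 ± 11.6 CPM in KO, against 102 ± 7.61 CPM in WT (SD, n = 3), with a log2 fold change of 0.23 (SE 0.08, adjusted p = 0.635 in limma-voom) and no overlap. The other was *Actn2*, an actin crosslinker that binds GluN1 and GluN2B, named after its value was seen, with a log2 fold change of 0.44 (SE 0.14, adjusted p = 0.635 in limma-voom) and overlapping groups. The most abundant scaffolds were *Shank1*, at 98.8 ± 3.52 FPKM over the 6 libraries, and *Dlgap3*, at 97.4 ± 6.76 FPKM. Their log2 fold changes were 0.03 (SE 0.06) and -0.04 (SE 0.08), and their groups overlapped.

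Among 29 kinases, phosphatases and calcium signalling genes, 6 had log2 fold changes above 0 and 23 below (median -0.09). The general neuron markers given above also lay mostly below 0 (median -0.15). Of the 29 genes 6 had an unadjusted limma-voom p-value under 0.05, 1 higher and 5 lower in KO, where 7.82% of all genes tested had one. The groups did not overlap for 6 of the 29. Of all genes tested, 6.72% had every KO library above every WT library and 6.29% had every KO library below. Of calmodulin, which binds GluN1 and closes the channel when calcium enters, *Calm2* had a log2 fold change of -0.15 (SE 0.06) and *Calm3* of -0.19 (SE 0.06), both without overlap. *Calm2* was at 787 ± 52.3 FPKM and *Calm3* at 522 ± 44.9 FPKM over the 6 libraries. *Prkca*, a protein kinase C that phosphorylates receptor subunits, had a log2 fold change of 0.22 (SE 0.08). *Ppp3r1*, the regulatory subunit of calcineurin, had one of -0.20 (SE 0.09). The adjusted p-values of these genes in limma-voom ranged from 0.635 to 0.636.

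Of 12 trafficking and auxiliary genes 3 had log2 fold changes above 0 and 9 below (median -0.06). *Ephb2*, an ephrin receptor that clusters NMDA receptors, was at 14.3 ± 1.56 CPM in KO, against 17.8 ± 2.86 CPM in WT, without overlap, with a log2 fold change of -0.31 (SE 0.14, adjusted p = 0.635 in limma-voom). The most abundant of the list were *Pacsin1*, which takes part in endocytosis of GluN3A, at 84.7 ± 4.39 FPKM, and *Apba1*, which ties vesicles with GluN2B to a kinesin, at 37.2 ± 2.03 FPKM. Their log2 fold changes were -0.06 (SE 0.06) and -0.12 (SE 0.06). The groups were separate for 2 of the 12 genes, *Ephb2* and *Apba1*, both lower in KO. Of all genes tested, 6.29% had every KO library below every WT library. An unadjusted limma-voom p-value under 0.05 was found for 1 of the 12, *Ephb2*, and for 7.82% of all genes tested.

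Of 15 genes for the supply and removal of the co-agonists glycine and D-serine 13 were tested, 11 with log2 fold changes above 0 and 2 below (median 0.05). *Srr*, which makes D-serine, was at 22.3 ± 1.45 FPKM with a log2 fold change of 0.02 (SE 0.08), and *Psat1*, an enzyme of serine synthesis, was at 20.0 ± 0.72 FPKM with a log2 fold change of 0.00 (SE 0.07). An unadjusted limma-voom p-value under 0.05 was found for 1 of the 13, and for 7.82% of all genes tested. It was *Slc1a5*, a neutral amino acid transporter named after its value was seen, at 5.81, 2.60 and 2.19 CPM in KO, against 1.25, 1.64 and 2.28 CPM in WT, with overlap and its highest value in KO replicate 1. The groups were separate for 1 other gene of the 13. Of all genes tested, 6.72% had every KO library above every WT library and 6.29% had every KO library below.

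**Figure D5:**
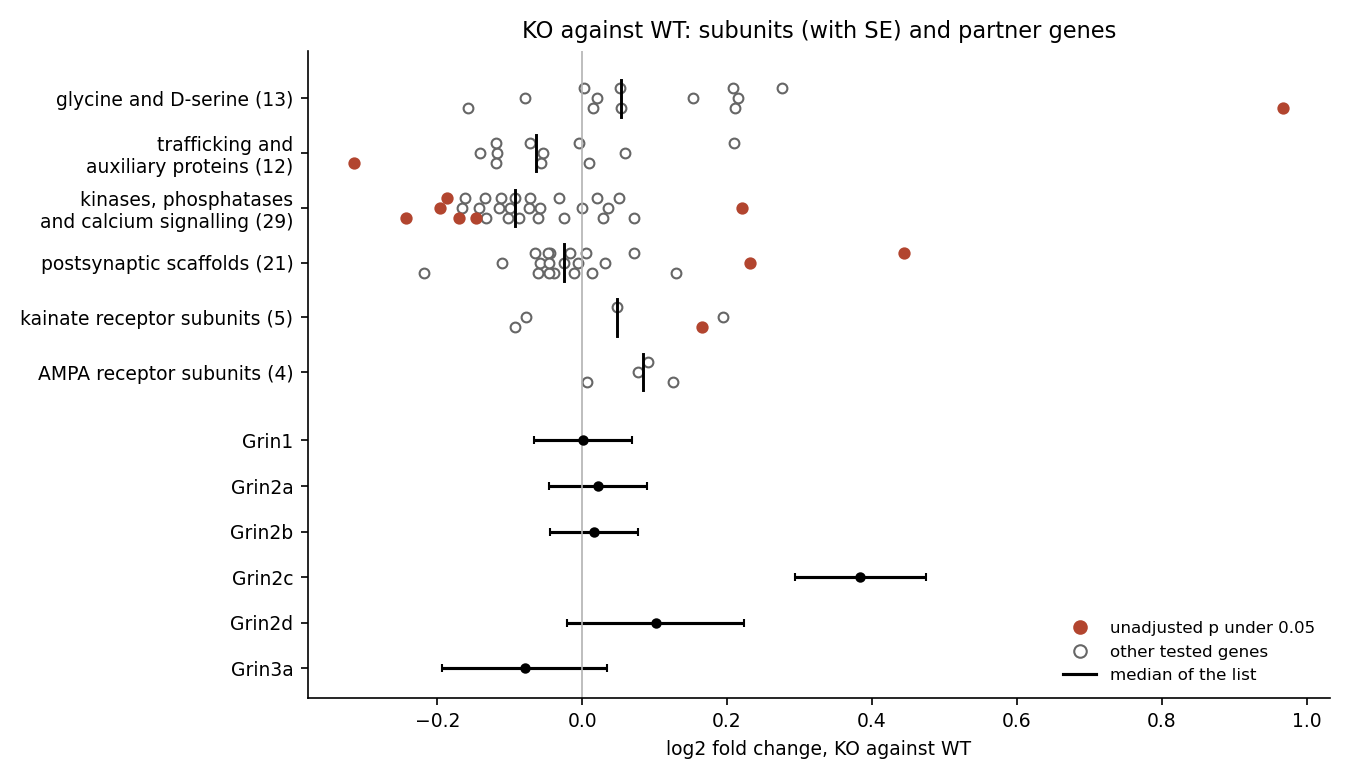
Log2 fold change, KO against WT, of the 6 fitted subunit genes with their SE (lower part) and of the tested genes of 6 lists (upper part, number of genes in brackets), with red points for an unadjusted p-value under 0.05 and a black line at the list's median. *Grin2c* lies at 0.38, the other subunit genes between -0.08 and 0.10, and the medians of the lists between -0.09 and 0.08.

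In the related families, of 4 AMPA receptor genes 4 had log2 fold changes above 0, from 0.01 to 0.13, with no unadjusted p-value under 0.05. Of 5 kainate receptor genes 3 were above 0 and 2 below, and *Grik2*, named after its value was seen, had an unadjusted p-value under 0.05 and an adjusted limma-voom p of 0.636, with a log2 fold change of 0.17 (SE 0.08). *Grik1*, also named after its value was seen, had a log2 fold change of 0.19 (SE 0.12). Every KO library was above every WT library for *Grik1* and *Grik2*, 2 of the 5, and for 0 of the 4 AMPA receptor genes, where 6.72% of all genes tested had that pattern. These lists are too short for such shares to be compared.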

How the data were processed

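The members, the gene lists and the tests were chosen with earlier results of these data known. Each sample has 1 deposited table, with a raw count of fragments (read pairs) and the exon length for every gene. Per the file headers, the authors counted with featureCounts 1.6.0 in paired-end mode, strand option 2, on GENCODE M31 of GRCm39, after alignment with STAR 2.7.9a per the submitters' processing notes. Because an earlier build and annotation are named in the study's methods, coordinates follow the files. No option for fragments that map to several places or genes is listed, so such fragments were not counted, and replicates were not pooled.

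Genes with at least 6 fragments in at least 1 library were fitted with limma 3.58.1 (voom) after TMM scaling in edgeR 4.0.16 under R 4.3.3, two-sided, without covariates, with Benjamini-Hochberg adjustment at 0.05 over all 19084 genes tested. FPKM is the TMM-scaled CPM per kilobase of the exon length. Log2 ratios per library used a pseudocount of 0.5 fragments. Coding sequences from GENCODE M21 transcripts were aligned with mafft 7.526. The scripts were tested on simulated data.

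Named genes were the 7 members, *Pla2g4e*, the 2 genes of highest FPKM of each pathway list and up to 4 with an unadjusted p-value under 0.05 and groups that did not overlap, and the 3 genes most like each member with a mean of at least 1 CPM. One gene that this rule names and the sequences themselves are not reported here. The alternatives were other scalings, filters and tests (edgeR quasi-likelihood, DESeq2 1.42.0), a replicate block, an *Xist* covariate, other lengths and leaving out each library. Fragments carry no molecular identifiers.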

Additional observations from a re-analysis of the deposited data

How the results depend on the processing

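The log2 fold change of *Grin2c* was between 0.30 and 0.43 under all 16 alternatives. Those of *Grin1*, *Grin2b* and *Grin3a* ranged from -0.04 to 0.06, -0.02 to 0.06 and -0.18 to 0.05, and that of *Grin3a* was 0.05 without the library labelled WT replicate 1. Among the 4 libraries with low *Xist* that of *Grin2a* was 0.11 and that of *Grin2d* was -0.077. Leaving out each library gave -0.02 to 0.07 for *Grin2a* and -0.05 to 0.18 for *Grin2d*. *Grin3b* had too few fragments for a fold change.

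Of all genes tested, 1 passed the adjusted threshold with DESeq2, 24 with the *Xist* covariate and 3 in the libraries with low *Xist*, and 0 to 1 when a library was left out (1 without WT replicate 2). Unadjusted, 902 genes passed with DESeq2, 2030 with the *Xist* covariate and 696 in the libraries with low *Xist*. When a library was left out, 782 (without WT replicate 2) to 2239 (without WT replicate 3) genes passed unadjusted. Without KO replicate 1 the count was 830, and without the library labelled WT replicate 1 it was 1019. Of the pathway genes 17 passed unadjusted with the *Xist* covariate, 3 in the libraries with low *Xist*, and 1 (without WT replicate 2) to 18 (without WT replicate 3) when a library was left out, with 2 without KO replicate 1 and 5 without the library labelled WT replicate 1. With the replicate block, 1693 genes and 15 pathway genes passed unadjusted, 0 adjusted, and the log2 fold change of *Grin2c* was 0.38. The numbers were not taken as pairs, because deviations of same-numbered libraries correlated at 0.48, 0.13 and 0.01, and not every library was most like its own number. The cause of these differences was not tested.

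Without division by length the log2 level ratio was -0.20 for *Grin1* to *Grin2b*, 1.87 for *Grin2a* to *Grin2c*, 0.28 for *Grin2c* to *Grin3a* (adjusted exact p = 0.09375) and 1.10 for *Grin3a* to *Grin2d*. With the longest coding transcript it was 0.89 for *Grin2c* to *Grin3a* and 0.63 for *Grin3a* to *Grin2d*. These follow from the lengths. The coding length from a protein table was not run. With 5 libraries no exact p-value can fall below 0.0625, so every leave-one-out ratio missed the threshold. The ratios were then 1.13 to 1.18 for *Grin1* to *Grin2b*, 1.16 to 1.18 for *Grin2b* to *Grin2a*, -0.01 to 0.12 for *Grin2a* to *Grin2c*, 1.50 to 1.65 for *Grin2c* to *Grin3a*, 0.14 to 0.27 for *Grin3a* to *Grin2d*, 6.09 to 6.56 for *Grin2d* to *Grin3b*, -0.66 to -0.63 for NMDA to AMPA and 0.54 to 0.57 for NMDA to kainate. For *Grin2a* to *Grin2c* it was -0.0039 without the library labelled WT replicate 1 and -0.0134 without WT replicate 2.

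The percent of the summed levels was 36.55 in CPM and 67.6 with the longest coding transcript for *Grin1*, 13.4 and 7.27 for *Grin2a*, 41.8 and 13.8 for *Grin2b*, 3.72 and 6.01 for *Grin2c*, and 1.42 and 2.07 for *Grin2d*, and 0.0071 in CPM for *Grin3b*. At this depth *Grin3b* could not be told from 0 in single libraries, and counting error alone gave *Grin2d* a CV of 6.24% in its shallowest library.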

Other observations

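*Grin1os*, an antisense transcript of *Grin1* that was picked after its values were seen, had 9 fragments in each KO library, against 20, 21 and 17 in WT. Its level was 0.688 ± 0.074 CPM in KO, against 1.54 ± 0.194 CPM in WT (SD, n = 3), without overlap, and its log2 fold change was -1.13 (SE 0.36, adjusted p = 0.635 in limma-voom). Of all genes tested, 6.29% had every KO library below every WT library. *Grin1* on the other strand, at 564.69 to 644.42 CPM, overlapped between the groups. *Gm45441*, antisense to *Grin2d*, had 60, 49 and 61 fragments in KO, against 64, 70 and 72 in WT, without overlap, with a log2 fold change of -0.34 (SE 0.18, adjusted p = 0.641 in limma-voom). *Tmem259*, whose exons cover 32.1% of those of *Grin3b* on the other strand, had 1076 to 1415 fragments in each library, against 0 to 3 of *Grin3b*.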
